A study of Mus musculus with 12 samples.

Results

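The passage of B cells from an activated but undivided state to the antibody-secreting state was followed in 4 RNA-Seq libraries out of the 12 of the series, 2 of undivided cells sorted 33 h after activation and 2 of plasmablasts sorted on day 4. The libraries were chosen by their stage labels and not by a rule on measured values, though with earlier results of these data known. A further 2 libraries held expanded B cells, which were taken from the same kind of 4-day culture and had divided without becoming plasmablasts, and these were used to part changes particular to the plasmablast fate from changes that both divided populations had in common. All 6 libraries came from splenic B cells of male C57BL/6 mice that were isolated by negative selection, labelled with CellTrace Violet (a dye diluted at each division) and given 25 µg/ml of lipopolysaccharide (LPS), a bacterial cell wall component that drives B cells to divide and some of them to secrete antibody. Undivided cells were gated as TCRβ- CD69+ B cells with the highest dye signal, expanded B cells as CD22+ CD138-, and plasmablasts as CD22- CD138+. Both day 4 populations were grown at a lower cell density than the short cultures, so division cannot be told apart from time in culture, density and gate in any comparison with the 33 h cells. The study describes its duplicates as biological, and nothing more is given on whether they came from separate animals or cultures, so the p-values measure only the spread between these libraries.

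Plasmablasts are dividing cells at the entrance to the plasma cell fate. The factor BLIMP-1 (Prdm1) shuts down the B cell programme, IRF4 is needed for the fate, and XBP1 enlarges the endoplasmic reticulum (ER) and its secretory apparatus, in which immunoglobulin chains are translocated, folded, glycosylated and sent on to the Golgi. PAX5, BACH2 and SPI-B belong to the programme that is lost, as do the B cell receptor's coreceptors and the presentation of antigen on MHC class II.

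The labels were checked first with 3 markers of plasmablasts. Jchain (chr5:88519809-88527897, mm10), the chain that joins secreted IgM and IgA, stood at 7.22 and 9.43 RPKM in the 33 h libraries, 289.6 and 372 in the expanded ones and 8216 and 7779 in plasmablasts. Prdm1 (chr10:44437174-44528558) measured 6.42 and 11.5 RPKM in the 33 h libraries, 44.6 and 48.4 in the expanded ones and 105 and 117 in plasmablasts. Sdc1 (chr12:8771396-8793716), which encodes CD138, measured 2.19 and 2.58 RPKM in the 33 h libraries, 1.27 and 1.71 in the expanded ones and 47.6 and 48 in plasmablasts. RPKM are counts scaled to exon length and to the TMM-scaled library size. Each marker was higher in both plasmablast libraries than in any other of the 6, but Jchain and Prdm1 were also higher in the expanded cells than at 33 h, while Sdc1 was not. Sdc1 and Cd22 were part of the gates, so their changes are a check of the sort and not a finding. The fall of Cd22 in expanded B cells was lost without 33 h replicate I (-0.79). Cd22 measured 238 and 171 RPKM in the 33 h libraries, 101 and 96.1 in the expanded ones and 0.432 and 0.368 in plasmablasts. Total counts of the 6 libraries ran from 32263933 to 60585587, and in bulk RNA fewer cells of a type and less RNA per cell cannot be told apart.

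Of 12750 genes tested, 5018 (39.4%) were differentially expressed (DE) between 33 h undivided cells and plasmablasts, 2552 higher (20%) and 2466 lower (19.3%). DE here means that edgeR's glmTreat placed the change beyond 1.5-fold at a Benjamini-Hochberg adjusted p under 0.05. Expanded B cells differed from the same 33 h libraries in 1352 genes, 885 higher (6.94%) and 467 lower (3.66%). Plasmablasts had 1776 genes above (13.9%) and 1553 below (12.2%) their level in expanded B cells. Changes over 4-fold were more numerous among the higher DE genes of plasmablasts (1096) than among the lower (689), and the same was seen in expanded B cells (447 and 136). The DE genes of plasmablasts include 177 with at most 3 counts in each 33 h library and 196 with as few in each plasmablast library. The size of their change is uncertain. The balance between the directions depended on the scale. Immunoglobulin genes and Jchain took 16.6% and 16.2% of all counts in the plasmablast libraries against 1.42% and 1.83% at 33 h. Without the variable segments, which were left out of the fit, the shares were 11.5% and 11.1% against 1.06% and 1.35%. When libraries were scaled by their totals over tested genes alone, the median of all genes moved by -0.35 on the log2 scale. The split then became 1899 higher and 3983 lower (32.3% higher, against 50.9%). The cause of this move was not tested.

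Expanded B cells and plasmablasts were both sorted on day 4, so a step between them is a difference between populations and not a course followed by the same cells. The 3 comparisons share libraries, so their values are set side by side, and the DE genes were divided by a rule on all 3 tests. A gene was called plasmablast-only when it was DE between 33 h cells and plasmablasts and, in the same direction, between expanded B cells and plasmablasts, but not between 33 h cells and expanded B cells. There were 2326 such genes, 46.4% of the 5018, with 1241 higher (9.73% of genes tested) and 1085 lower (8.51%). A gene was called further when all 3 tests passed in the same direction, which held for 477 genes, 329 higher (2.58%) and 148 lower (1.16%). A gene was called shared when it was DE from 33 h in both divided populations in the same direction and not DE between them, which held for 567 genes, 339 higher (2.66%) and 228 lower (1.79%). The remaining DE genes were unresolved in 1581 cases (neither other test passed), partly returned in 34 (plasmablasts were back part of the way towards 33 h) and opposed in 33 (the divided populations moved in opposite directions). The median change of the 1241 plasmablast-only higher genes was 1.76 in plasmablasts and 0.29 in expanded B cells, and the 1085 lower genes had medians of -1.60 and -0.32. Shared is a missed difference and not shown likeness: only in 103 of the 567 (18.2%) did the 95% interval of the difference between plasmablasts and expanded B cells lie within 1.5-fold. Without 33 h replicate I the shared genes numbered 340, and without expanded replicate II the further genes numbered 312. The class of a single gene turns on the test in expanded B cells, which lay near its threshold for many genes. Unless said otherwise, the settings named for a single gene are those that keep the fold threshold.

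**Figure D1:**
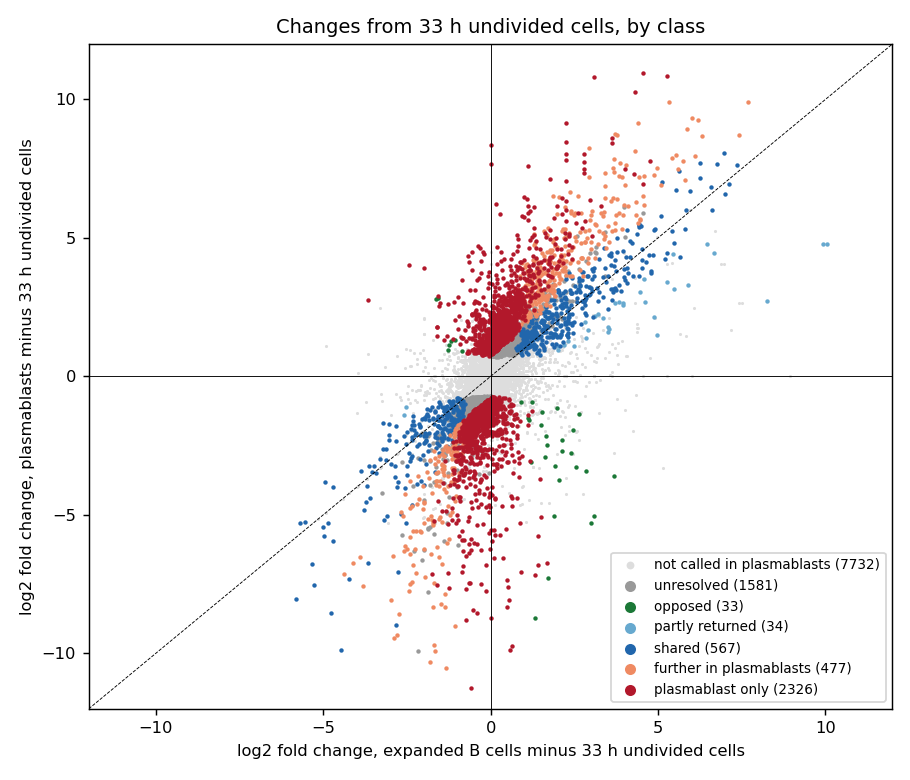
Each point is a tested gene, with the log2 fold change from 33 h undivided cells to expanded B cells on the x axis and that to plasmablasts on the y axis, coloured by class. Both axes contain the same 33 h libraries, and the dashed line marks equal change. Plasmablast-only genes (2326) lie in a steep band around x = 0, the 477 further genes lie between that band and the line, and the 567 shared genes lie around the line.

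Of the well-expressed plasmablast-only genes that rose (average log2 CPM 5 or more), the leading ones beside the gated Sdc1 were Slc44a1, a choline transporter, Ckap4, an ER membrane protein, Ccpg1, a receptor for ER-phagy, and Alcam, an adhesion molecule. Ckap4 measured 22.7 and 31.5 RPKM in the 33 h libraries, 48.4 and 54.8 in the expanded ones and 385 and 401 in plasmablasts. Its change was 3.86 ± 0.17 (log2, ± SE) in plasmablasts and 0.93 ± 0.15 in expanded B cells, with an adjusted p of 2.6e-09 and 0.0503, and the change in expanded B cells passed in 6 of the 15 alternative settings that keep the fold threshold. Alcam changed by 3.64 ± 0.16, from 5.14 and 6.60 RPKM at 33 h to 71.4 and 74.8 in plasmablasts, with 9.24 and 10.6 in expanded B cells. The change of Slc44a1 in expanded B cells passed without expanded replicate I (1.09). For each of these genes both plasmablast libraries lay above all 4 others, but the genes were chosen among those whose replicates do not overlap.

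The leading lower plasmablast-only genes were Kynu, an enzyme of tryptophan breakdown, Mpeg1, a pore-forming protein of phagocytes and B cells, Spib, a factor of the B cell programme, Klf2, a regulator of migration and quiescence, and Ceacam1, an adhesion receptor. Kynu measured 15.1 and 14 RPKM in the 33 h libraries, 9.12 and 8.35 in the expanded ones and 0.0930 and 0.0516 in plasmablasts. Mpeg1 measured 23.1 and 23 RPKM in the 33 h libraries, 24.3 and 24.6 in the expanded ones and 0.205 and 0.277 in plasmablasts. The expanded libraries sat beside the 33 h libraries for Mpeg1 (log2 change 0.09, against -6.56 in plasmablasts), while for Kynu they were lower without passing the test (-0.74, adjusted p = 0.22). Ceacam1 fell by 5.52 on the log2 scale in plasmablasts and measured 14.4 and 15.1 RPKM in expanded B cells against 11.9 and 9.46 at 33 h.

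Genes that had changed in expanded B cells and had changed further in plasmablasts were led by Jchain, Ighg3, Tmed6, Ighg2b and Hid1 in the higher direction. Tmed6, a member of the cargo receptor family of the early secretory pathway, measured 1.84 and 3.14 RPKM in the 33 h libraries, 75.6 and 89.5 in the expanded ones and 300.4 and 278 in plasmablasts, and Hid1, a protein of the Golgi and of secretory granules, 1.12 and 2.0 RPKM in the 33 h libraries, 6.10 and 10.2 in the expanded ones and 92.3 and 99.6 in plasmablasts. Both were higher at each step. For Hid1 the larger log2 difference was between expanded B cells and plasmablasts (3.57, against 2.41 between 33 h and expanded B cells). For Tmed6 it was between 33 h and expanded B cells (5.10, against 1.81). In the lower direction the leaders beside the gated Cd22 included Tlr9, the endosomal receptor for bacterial DNA, Sorl1, a sorting receptor, and B3gnt5, a glycosyltransferase of glycolipids. Tlr9 measured 78.9 and 54.6 RPKM in the 33 h libraries, 24.9 and 27 in the expanded ones and 0.268 and 0.305 in plasmablasts, a change of -7.85 ± 0.23 in plasmablasts against -1.36 ± 0.15 in expanded B cells. Sorl1 fell by 7.44 in plasmablasts and by 2.34 in expanded B cells.

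The leading shared genes were Ighg1, Serinc5, Vpreb3, Cdc25b and Bmf in the higher direction and Icosl, Slfn8, Fcmr, Ifi209 and Rnf213 in the lower. Cdc25b, a phosphatase that lets cells enter mitosis, measured 15.3 and 22.4 RPKM in the 33 h libraries, 75.2 and 86.9 in the expanded ones and 127 and 127 in plasmablasts, and the difference between the divided populations was 0.65 with a 95% interval of 0.33 to 0.96. Vpreb3, a chaperone-like protein of the B lineage, measured 23.6 and 21 RPKM in the 33 h libraries, 144 and 153 in the expanded ones and 244 and 259 in plasmablasts. Its difference was 0.76 (adjusted p = 0.064), which passed in 3 of the 15 alternative settings that keep the fold threshold (0.79 in each). The difference also passed for Serinc5 in a fit of 6 libraries (0.78) and for Ifi209 with no filter (-0.91). Rnf213, an interferon-induced ubiquitin ligase, measured 20.6 and 12.1 RPKM in the 33 h libraries, 3.24 and 3.23 in the expanded ones and 3.42 and 3.26 in plasmablasts, with a difference of 0.05 and an interval of -0.73 to 0.83. Ifi209, another interferon-induced gene, fell by 2.33 in plasmablasts, and its fall of 1.45 in expanded B cells (adjusted p = 0.0498) no longer passed in 9 of the 15 alternative settings that keep the fold threshold, among them with DESeq2 (-1.42) and without 33 h replicate I (-1.05), expanded replicate I (-1.53), expanded replicate II (-1.38), plasmablast replicate I (-1.42) or plasmablast replicate II (-1.42).

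**Figure D2:**
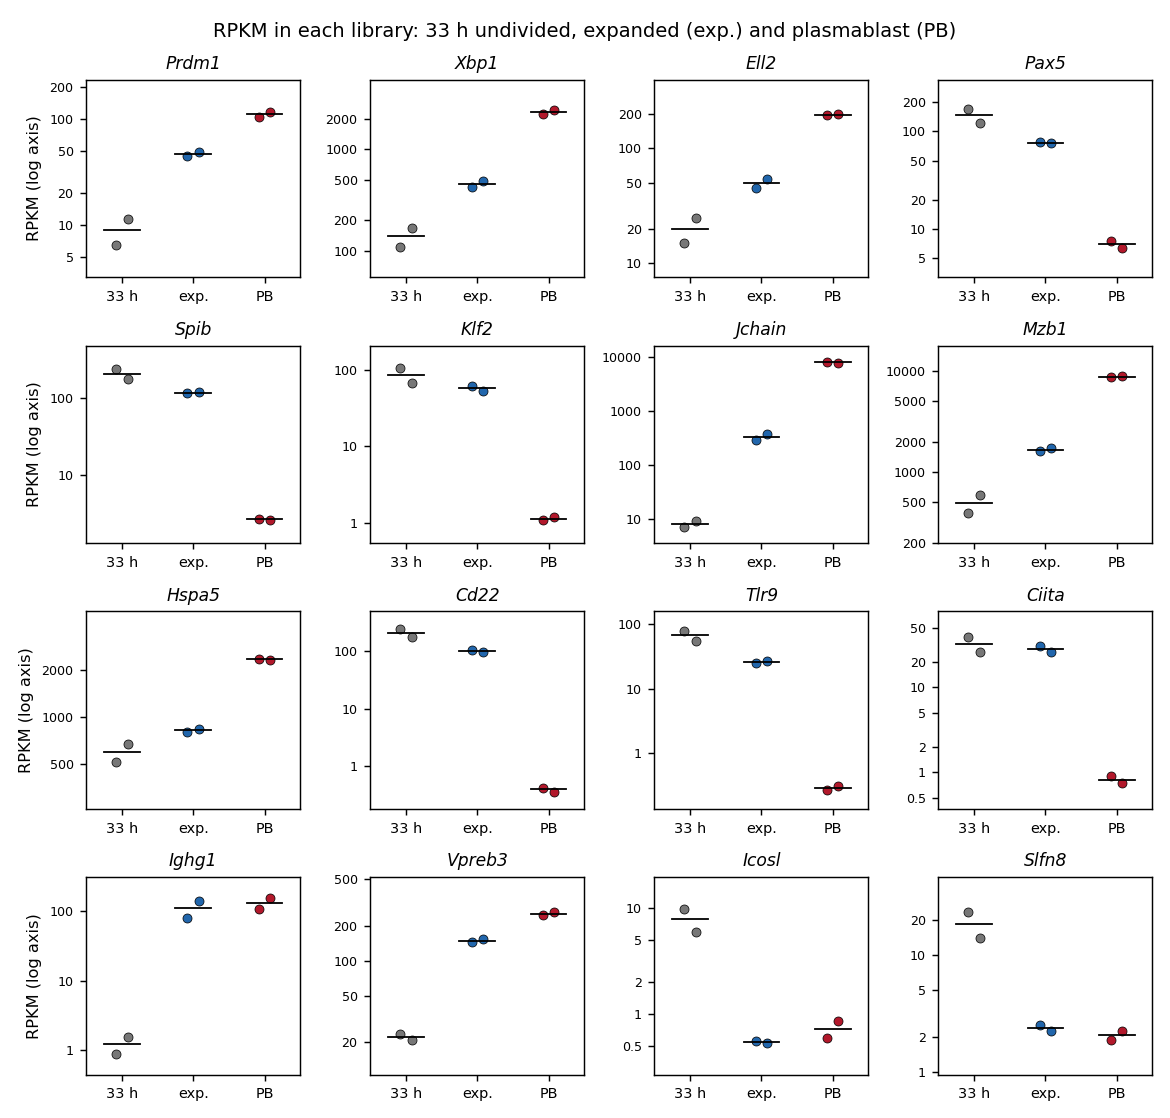
RPKM of 16 genes in each library, on log axes that differ between panels. Points are the 2 libraries of 33 h undivided cells (33 h), expanded B cells (exp.) and plasmablasts (PB), and bars are their means. Spib, Klf2 and Ciita were far lower in plasmablasts than in the other 4 libraries, Jchain, Mzb1 and Xbp1 rose in steps, and Ighg1, Icosl and Slfn8 moved from 33 h in both divided populations without a call between them.

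The secretory pathway moved almost entirely one way. Of 209 tested genes in 5 lists (translocation into the ER, folding, ER-associated degradation, N-glycosylation, and COPII, COPI and Golgi traffic), 157 rose in plasmablasts (75.1%, against 20% of all genes) and 1 fell, with a median log2 change of 1.64. In expanded B cells 40 of the 209 rose (19.1%, against 6.94% of all genes) and 1 fell, with a median of 0.42. The background for each list is the share of all genes tested, 20% higher and 19.3% lower in plasmablasts and 6.94% and 3.66% in expanded B cells, with median changes of -0.07 and -0.02. Between expanded B cells and plasmablasts 141 of the 209 were higher (67.5%) and 3 lower. In that comparison 13.9% of all genes were higher and 12.2% lower, which is the background for every list. The 157 and the 1 comprised 98 plasmablast-only, 39 further, 21 unresolved and 0 shared genes. The 209 genes together took 2.5% and 2.94% of counts at 33 h, 4.0% and 4.23% in the expanded libraries, and 9.95% and 10.0% in plasmablasts.

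At the entry to the ER, 24 of 29 translocation genes rose (82.8%, against 20% of all genes) and 0 fell in plasmablasts. In expanded B cells 8 rose and 0 fell (medians 2.04 and 0.68). Sec11c, a subunit of signal peptidase, measured 177 and 202 RPKM in the 33 h libraries, 413 and 425 in the expanded ones and 2323 and 2455 in plasmablasts. Sec11a, the other catalytic subunit, measured 67.5 and 73.5 at 33 h and 108 and 109 in plasmablasts and did not pass (adjusted p = 0.3). Sec61b and Sec61a1, parts of the translocation channel, rose by 3.17 and 2.44, and in expanded B cells Sec61b rose by 1.18 while Sec61a1 did not pass (0.81, adjusted p = 0.081). Sec61a1 passed without 33 h replicate II (1.03). Tram2, a channel-associated protein, climbed from 4.21 and 4.15 RPKM to 15.8 and 18.9 and then 55.3 and 56.2. The receptor for the signal recognition particle, Srpr, rose by 1.87 in plasmablasts and had a change of 0.27 in expanded B cells.

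Folding genes rose almost throughout. Of 32 tested genes, 28 rose in plasmablasts (87.5%, against 20% of all genes) and 0 fell. In expanded B cells 10 rose, and 29 were higher in plasmablasts than in expanded B cells, with medians of 2.59 and 0.73 against 33 h. Mzb1, a cochaperone needed for IgM assembly, measured 397 and 588 RPKM in the 33 h libraries, 1607 and 1731 in the expanded ones and 8644 and 8912 in plasmablasts. Txndc5, a disulfide isomerase, measured 87.4 and 115 RPKM in the 33 h libraries, 235 and 266 in the expanded ones and 2728 and 2679 in plasmablasts. Both rose in expanded B cells and again in plasmablasts, with every library in the order of the stages. Fkbp11, a prolyl isomerase, measured 5.32 and 9.30 RPKM in the 33 h libraries, 11.5 and 13.7 in the expanded ones and 229 and 219 in plasmablasts, and its change of 4.97 ± 0.27 in plasmablasts stood against 0.81 ± 0.26 in expanded B cells (adjusted p = 0.39). The latter passed without 33 h replicate II (1.24). Selenom, an ER selenoprotein, had the largest change of the list, 8.25 ± 0.27, and measured 0.336 and 0.196 RPKM at 33 h, 1.75 and 2.65 in the expanded libraries and 83.9 and 89.7 in plasmablasts. The general ER chaperone Hspa5 (BiP) was already abundant at 33 h, with 515 and 670.2 RPKM in the 33 h libraries, 796 and 838 in the expanded ones and 2349 and 2309 in plasmablasts. Its log2 change was 1.97 ± 0.11, while that of Hsp90b1 (GRP94) was 3.14 ± 0.16. The lectin chaperone Calr rose by 2.21, whereas Canx, the membrane-bound lectin chaperone, measured 100.5 and 131 at 33 h and 183 and 178 in plasmablasts and did not pass (adjusted p = 0.35). Of the oxidases of disulfide formation, Ero1b rose by 2.90 ± 0.11 and Ero1a had a change of 0.73 ± 0.10, which did not pass (adjusted p = 0.063). It did pass with DESeq2 size factors (0.78), in a fit of 6 libraries (0.78), without immunoglobulin genes (0.78) and without 33 h replicate II (0.84) or plasmablast replicate I (0.84).

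Many of these genes are known targets of XBP1 and ATF6, which bind with NF-Y at the ER stress response element. Promoters were therefore searched in RefSeq sequence (GRCm38.p6, 250 bases before to 50 after each gene's start) for the element's letters, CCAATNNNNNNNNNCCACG (ERSE), and for the related ATTGGNCCACG (ERSE-II), on both strands. Of 27025 genes with a promoter sequence, 37 held ERSE and 12 held ERSE-II, 49 in all (0.181%), so no gene was counted under both although the patterns share letters. Among 28 of the 32 folding genes with a sequence, 9 held a match (32.1%). Among the 60 COPII, COPI and Golgi genes with a sequence (of 69) 0 held a match. Among the sensors of the unfolded protein response 0 of 13 (of 15) held one, and among N-glycosylation genes 2 of 41 (of 49). Of the 22 degradation genes with a sequence (of 30) 3 held a match (13.6%), and of the 21 translocation genes (of 29) 0 did. The stretches below are from folding and degradation genes that rose and whose match lies, with its flanks, wholly before the start. They were chosen because they show the letters beside genes with values in the text. They are read 5′ to 3′ on the gene's strand, with the match in capitals and 10 bases on either side, and where the match lies on the other strand the capitals show its reverse complement. They lie at chr2:34772015-34772053 on the plus strand (Hspa5), chr10:86705523-86705561 on the minus strand and chr10:86705628-86705666 on the minus strand (Hsp90b1), chr8:84847065-84847103 on the minus strand (Calr), chr12:17266481-17266519 on the plus strand (Pdia6), chr13:12565672-12565710 on the plus strand (Ero1b), chr14:118937817-118937855 on the plus strand (Dnajc3), chr15:88819510-88819548 on the plus strand (Creld2), chr10:75893232-75893270 on the plus strand (Derl3), chr19:6046522-6046560 on the plus strand (Syvn1) and chr8:94386367-94386397 on the plus strand (Herpud1, ERSE-II).
Hspa5: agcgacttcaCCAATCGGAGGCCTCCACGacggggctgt
Hsp90b1, first: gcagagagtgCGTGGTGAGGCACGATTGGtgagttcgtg
Hsp90b1, second: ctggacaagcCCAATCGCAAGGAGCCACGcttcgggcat
Calr: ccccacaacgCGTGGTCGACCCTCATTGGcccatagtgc
Pdia6: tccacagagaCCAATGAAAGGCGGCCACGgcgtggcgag
Ero1b: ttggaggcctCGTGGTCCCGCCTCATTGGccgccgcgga
Dnajc3: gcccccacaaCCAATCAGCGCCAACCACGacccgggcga
Creld2: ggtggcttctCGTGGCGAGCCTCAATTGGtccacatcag
Derl3: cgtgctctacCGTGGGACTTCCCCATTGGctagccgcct
Syvn1: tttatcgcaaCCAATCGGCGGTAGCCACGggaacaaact
Herpud1: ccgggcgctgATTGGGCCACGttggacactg
The genes with these letters did not all fall in the same class. Hsp90b1, Pdia6, Ero1b, Dnajc3, Derl3 and Herpud1 were further genes, higher also in expanded B cells (log2 1.10, 0.97, 1.22, 1.04, 1.48 and 0.97), while Hspa5, Calr, Creld2 and Syvn1 were plasmablast-only (0.46, 0.54, 0.82 and 0.70 in expanded B cells, none past the test). In the first group the expanded calls of Hsp90b1 were lost without expanded replicate II (1.03), those of Pdia6 without 33 h replicate I (0.77) or expanded replicate II (0.95), and those of Herpud1 with library size alone (0.96), with DESeq2 (0.99) and without 33 h replicate I (0.90), 33 h replicate II (1.03) or expanded replicate II (0.88). In the second, the change of Creld2 in expanded B cells passed without 33 h replicate II (1.14). Outside the printed stretches, matches lay also before Rcl1 and Adcy3, which fell in plasmablasts (-1.23 and -1.94), and before Nucb1 and Lgalsl, which rose (3.05 and 1.01). Alg12 (0.83, unresolved) has its match in the stretch printed for Creld2, read on the other strand. A match describes the sequence only and does not show that a factor was bound.

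**Figure D3:**
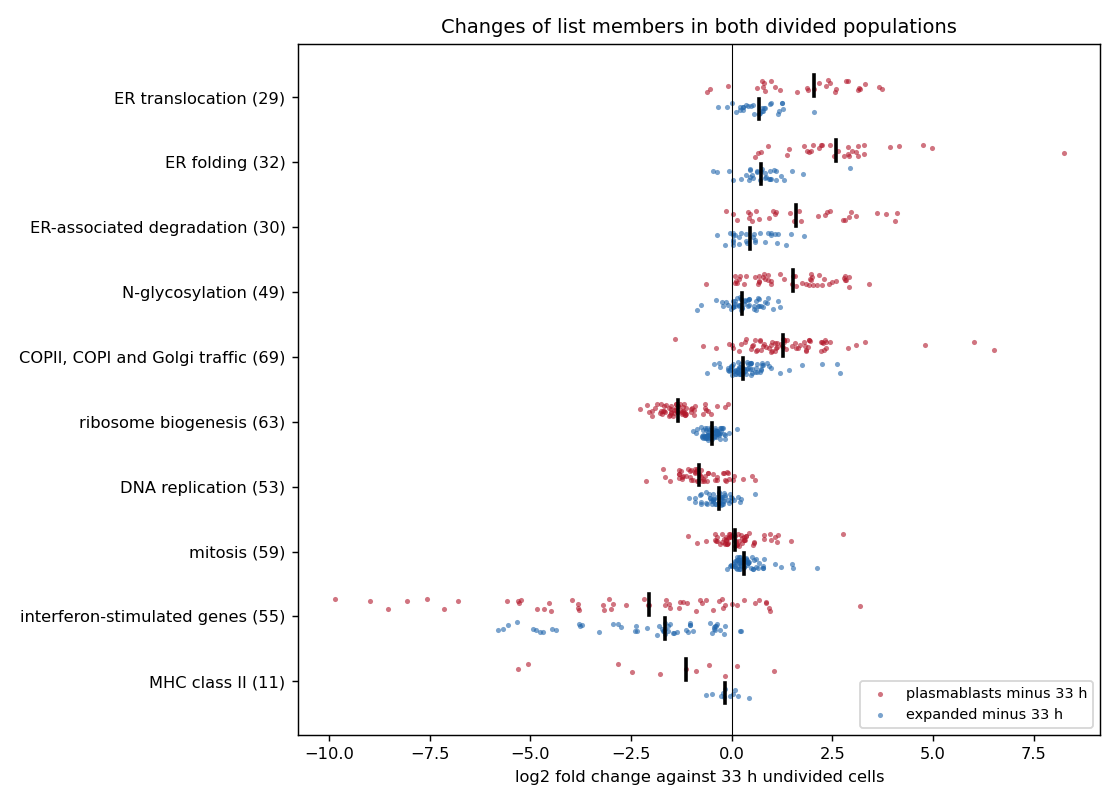
Log2 fold change of each tested member of 10 gene lists against 33 h undivided cells, in plasmablasts (red) and in expanded B cells (blue), with black bars at the medians and the number tested in parentheses. The red medians of the 5 secretory lists lie to the right of the blue, that of ribosome biogenesis lies to the left (medians -1.34 and -0.49), and the interferon-stimulated genes lie far to the left in both populations (-2.06 and -1.66).

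Degradation of misfolded proteins rose as a group, with 21 of 30 tested genes higher (70%, against 20% of all genes) and 0 lower in plasmablasts and 10 higher in expanded B cells (medians 1.60 and 0.45). Derl3, a channel component, measured 19.5 and 26.9 RPKM in the 33 h libraries, 57 and 71.9 in the expanded ones and 379 and 415 in plasmablasts. Edem1 and Edem2, which trim mannose from misfolded glycoproteins, rose by 3.83 and 4.06 in plasmablasts and by 1.14 and 1.08 in expanded B cells. The latter call was lost for Edem1 without 33 h replicate I (0.94) or expanded replicate II (1.10). Vcp, the ATPase that extracts substrates and serves many other processes, measured 82.6 and 93.4 at 33 h and 115 and 126 in plasmablasts and did not pass (adjusted p = 1). Of 15 sensors and effectors of the unfolded protein response, 10 rose (66.7%) and 0 fell, with a median of 1.42. Ern1, which encodes IRE1α, the enzyme that splices Xbp1 mRNA, measured 1.33 and 1.66 RPKM in the 33 h libraries, 6.55 and 6.62 in the expanded ones and 21.9 and 19.5 in plasmablasts. The sensor PERK (Eif2ak3) and the factor CHOP (Ddit3) of its branch were shared, with 1.82 and 1.74 in plasmablasts and 1.16 and 1.28 in expanded B cells. The sensor Atf6 was plasmablast-only (1.09 and 0.17), and its difference between the divided populations was lost with library size alone (0.58). The expanded call of Ddit3 was lost without 33 h replicate I (1.35), 33 h replicate II (1.23) or expanded replicate II (1.17).

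Of 49 N-glycosylation genes 34 rose (69.4%, against 20% of all genes) and 0 fell in plasmablasts (median 1.53), against 5 and 1 in expanded B cells (median 0.26). Rpn1, a subunit of oligosaccharyltransferase, which attaches the glycan, measured 134 and 166 RPKM in the 33 h libraries, 237 and 246 in the expanded ones and 1015 and 1061 in plasmablasts. Ddost and Krtcap2, subunits of the same complex, rose by 2.82 and 2.83, and all 3 were plasmablast-only. St6gal1, the sialyltransferase of the Golgi, rose also in expanded B cells, with 97.9 and 105 RPKM there, 43.6 and 45.2 at 33 h and 476 and 473 in plasmablasts. Among 69 genes of COPII, COPI and Golgi traffic 50 rose (72.5%) and 1 fell, against 7 and 0 in expanded B cells (medians 1.27 and 0.28). Sec24d, a cargo adaptor of COPII vesicles, measured 2.88 and 4.48 RPKM in the 33 h libraries, 20.4 and 26.5 in the expanded ones and 100.2 and 103 in plasmablasts, and Kdelr3, a receptor that returns ER proteins, 0.0976 and 0.0605 RPKM in the 33 h libraries, 0.354 and 0.700 in the expanded ones and 7.52 and 8.21 in plasmablasts. Both were further genes, as was Lman1, a cargo receptor for glycoproteins (2.87 and 0.96). Copg2, a COPI subunit, was the member that fell, by 1.41 on the log2 scale. The expanded call of Kdelr3 was lost without 33 h replicate I (3.04) or expanded replicate II (2.06), and that of Lman1 without 33 h replicate I (0.82) or expanded replicate II (0.89).

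Most immunoglobulin constant genes rose in both divided populations. Of 12 tested with Jchain, 11 rose (91.7%, against 20% of all genes) and 1 fell in plasmablasts. In expanded B cells 8 rose and 1 fell, with medians of 3.68 and 1.33. Ighm measured 5366 and 6891 RPKM in the 33 h libraries, 12152 and 14418 in the expanded ones and 52151 and 45993 in plasmablasts, and Igkc, the kappa constant region, 6662 and 8921 RPKM in the 33 h libraries, 19646 and 25756 in the expanded ones and 162191 and 179069 in plasmablasts. Both rose at each step and with no overlap between stages. The switched isotypes did not share a common pattern. Ighg1 was shared, with 0.875 and 1.54 RPKM in the 33 h libraries, 81.5 and 142 in the expanded ones and 109 and 156 in plasmablasts and a difference of 0.24 (95% interval -0.35 to 0.84). Ighg2b rose further, from 459 and 579 in expanded B cells to 1547 and 1676 in plasmablasts, and Ighg2c rose between those populations (2.06) without passing from 33 h to expanded B cells (adjusted p = 0.34), which it did with no filter (1.04) and in a fit of 6 libraries (1.11). The difference of Ighg2c between expanded B cells and plasmablasts was lost with DESeq2 (2.09). Ighg3 reached 1588 and 2203 and 3972 and 5402, but its further rise of 1.31 lost its call with library size alone (0.97), with DESeq2 (1.34) and without expanded replicate I (1.09) or plasmablast replicate II (1.09). Igha measured 1.59 and 1.63 at 33 h and 21.4 and 39 in plasmablasts, the latter 2 libraries being apart. Ighd, expressed by naive B cells, was the member that fell, from 473 and 246 at 33 h to 19.2 and 23 and then 2.65 and 3.99. Gene counts do not separate the secreted from the membrane form of these genes, nor sterile from switched transcripts, and sequence shared between gamma genes could be split by the counting.

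**Figure D4:**
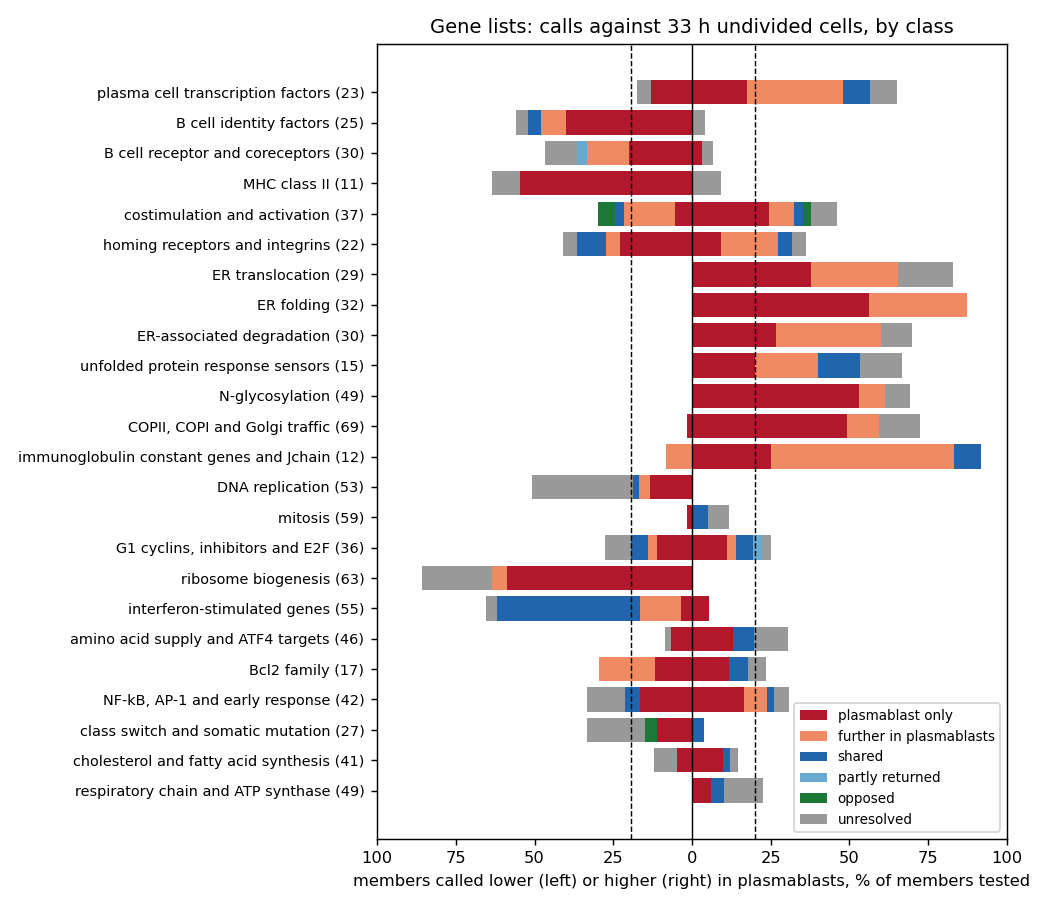
Share of tested members of each gene list (number tested in parentheses) that was DE between 33 h undivided cells and plasmablasts, lower to the left and higher to the right, split by class, with dashed lines at the shares among all genes (19.3% lower, 20% higher). The secretory lists extend almost only to the right and are mainly plasmablast-only or further, ribosome biogenesis is lower and mainly plasmablast-only, and the interferon-stimulated genes are mainly lower, with shared as their largest class.

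Of 23 tested factors of plasma cells, 15 rose (65.2%, against 20% of all genes) and 4 fell in plasmablasts. Expanded B cells had 9 higher and 1 lower, and the medians were 1.57 and 0.74. Xbp1 (chr11:5520641-5525993) measured 109 and 168 RPKM in the 33 h libraries, 426 and 486 in the expanded ones and 2231 and 2439 in plasmablasts. Bhlha15 (MIST1), a secretory cell factor, measured 2.69 and 6.69 RPKM in the 33 h libraries, 22.9 and 27.9 in the expanded ones and 118 and 117 in plasmablasts, and its 33 h libraries lay apart, so that its change in plasmablasts was 5.45 without 33 h replicate II. Creb3l2, a membrane-bound factor of the secretory programme, rose from 2.17 and 3.45 to 10.6 and 13 and 49 and 55.3, and Ell2, the elongation factor that favours secretory immunoglobulin mRNA, from 15.1 and 24.6 to 45.6 and 53.8 and 196 and 198. These were further genes, with both expanded libraries between the others. Pou2af1 (OBF-1), a coactivator at immunoglobulin promoters, and Myb also rose further (2.17 and 2.16 in plasmablasts). The expanded rise of Xbp1 was lost without 33 h replicate I (1.44) and that of Ell2 without 33 h replicate I (1.01) or expanded replicate II (1.20). With library size alone, the step from expanded B cells was lost for Prdm1 (0.92), Pou2af1 (0.72) and Myb (0.75). Irf4 rose by 1.60 ± 0.17 in plasmablasts, with 73.3 and 102 RPKM in the 33 h libraries, 147 and 163 in the expanded ones and 242 and 290.2 in plasmablasts. It was unresolved, since neither its change in expanded B cells (0.82, adjusted p = 0.18) nor the difference between the divided populations (0.78, adjusted p = 0.14) passed. The change in expanded B cells did pass with no filter (0.78) and without 33 h replicate II (1.08). Zbtb32, a factor that restrains recall antibody responses, went the other way: it measured 126 and 169 RPKM in the 33 h libraries, 155 and 148 in the expanded ones and 6.99 and 8.07 in plasmablasts.

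Of 25 factors of B cell identity, 14 fell (56%, against 19.3% of all genes) and 1 rose in plasmablasts, while 3 fell and 1 rose in expanded B cells (medians -1.33 and -0.56). Spib measured 243 and 176 RPKM in the 33 h libraries, 118 and 119 in the expanded ones and 2.68 and 2.57 in plasmablasts. Klf2 measured 106 and 68.6 RPKM in the 33 h libraries, 63 and 53.5 in the expanded ones and 1.07 and 1.17 in plasmablasts. Ciita, the activator of MHC class II genes, measured 39.3 and 26 RPKM in the 33 h libraries, 30.5 and 25.8 in the expanded ones and 0.900 and 0.743 in plasmablasts. For all 3 the plasmablast libraries lay far below the others and the expanded change did not pass (adjusted p = 0.091, 0.92 and 1), although that of Spib (-0.82) passed with no filter (-0.86) and without 33 h replicate II (-1.03). Pax5, the keeper of B cell identity, fell from 168 and 123 at 33 h to 7.54 and 6.42 in plasmablasts, with 77.2 and 75.4 in expanded B cells (-0.93, adjusted p = 0.063). That change passed with no filter (-0.97), in a fit of 6 libraries (-0.90) and without 33 h replicate II (-1.14). Bach2, a repressor of Prdm1, and Bcl11a had fallen in expanded B cells (-1.54 and -1.16) and fell further (-2.88 and -4.91). The expanded call of Bcl11a was lost without 33 h replicate I (-1.04), expanded replicate I (-1.17) or expanded replicate II (-1.16). Bcl6, a repressor of the plasma cell fate in germinal centres, was shared and was lowest in expanded B cells, with 9.91 and 7.0 RPKM in the 33 h libraries, 1.77 and 1.65 in the expanded ones and 2.91 and 2.68 in plasmablasts. Id3 and Id2, inhibitors of E proteins, changed by -5.22 and -1.95 in plasmablasts, with no call in expanded B cells. Irf8, an opponent of the fate, fell by 1.17 in plasmablasts. Not every factor moved: Spi1 (PU.1), the relative of Spib, measured 58.4 and 54.3 at 33 h and 48.4 and 52.7 in plasmablasts, a change of -0.16 ± 0.10. Mef2c was the member that rose (0.92), a call lost with library size alone (0.57).

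Of 30 genes of the receptor and its coreceptors, 14 fell (46.7%, against 19.3% of all genes) and 2 rose in plasmablasts, against 5 lower and 0 higher in expanded B cells. The medians were -0.72 and -0.27. The signalling chains Cd79a and Cd79b measured 767 and 627 and 884 and 704 at 33 h and 798 and 734 and 717 and 775 in plasmablasts, with overlapping libraries and changes of 0.14 ± 0.09 and -0.09 ± 0.11. The inhibitory coreceptor Cd72 measured 189.7 and 127 RPKM in the 33 h libraries, 76.7 and 76.9 in the expanded ones and 20.7 and 19.7 in plasmablasts, and another, Siglecg, 39.9 and 29.9 RPKM in the 33 h libraries, 30.1 and 28.1 in the expanded ones and 5.13 and 5.79 in plasmablasts. Ptpn6 (SHP-1), the phosphatase that such receptors recruit, fell by 2.43 in plasmablasts and by 0.82 in expanded B cells. The expanded call of Cd72 was lost with DESeq2 (-1.02) and without 33 h replicate I (-0.72), expanded replicate I (-1.04) or expanded replicate II (-1.04), and that of Bank1 without 33 h replicate I (-0.86) or expanded replicate II (-0.95). The expanded call of Ptpn6 was lost in 11 of the 15 alternative settings that keep the fold threshold, among them with library size alone (-0.83), with DESeq2 (-0.79), with the replicate block (-0.82) and without 33 h replicate I (-0.71), expanded replicate I (-0.85), expanded replicate II (-0.79), plasmablast replicate I (-0.79) or plasmablast replicate II (-0.79). The scaffold Bank1, which couples the receptor to calcium release, fell by 4.31 in plasmablasts. Fyn, a Src-family kinase, and Cd81, a tetraspanin, rose by 1.80 and 1.75. Cr2, a complement receptor, was lowest in expanded B cells and partly returned in plasmablasts, with 21.9 and 26.4 RPKM in the 33 h libraries, 4.09 and 3.93 in the expanded ones and 8.62 and 9.92 in plasmablasts.

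Antigen presentation was lower in plasmablasts and, by the test, not in expanded B cells: 7 of 11 MHC class II genes fell in plasmablasts (63.6%, against 19.3% of all genes) and 1 rose, while edgeR called 0 in expanded B cells (0 at an unadjusted p under 0.05, 0 with DESeq2 and 2 with the F-test that has no fold threshold). Leaving out a library brought 2 such calls, of H2-Oa without 33 h replicate II (-0.99) and of H2-Ob without 33 h replicate I (0.84). The medians were -1.13 and -0.17. The peptide-loading chaperones fell with Ciita. H2-DMb2 measured 193 and 146 RPKM in the 33 h libraries, 145 and 137 in the expanded ones and 24.4 and 23.2 in plasmablasts, and H2-DMa 199 and 144 RPKM in the 33 h libraries, 162 and 142 in the expanded ones and 50.4 and 48.9 in plasmablasts. H2-Oa, which restrains H2-DM, fell by 5.07, while its partner H2-Ob rose by 1.06 and lost that call with library size alone (0.71). The presenting molecules changed less: H2-Aa fell by 0.89, a call lost with DESeq2 (-0.84) and without 33 h replicate I (-0.67) or plasmablast replicate II (-0.78), H2-Eb1 fell by 1.13. H2-Ab1 did not pass (-0.57, adjusted p = 0.51), though it did with library size alone (-0.92) and without 33 h replicate II (-0.75). Cd74, the invariant chain, measured 6485 and 4983 RPKM in the 33 h libraries, 5498 and 5594 in the expanded ones and 6184 and 6337 in plasmablasts, with overlapping libraries.

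Surface receptors of activation and survival moved in both directions. Of 37 genes, 17 rose (45.9%, against 20% of all genes) and 11 fell (29.7%, against 19.3%) in plasmablasts. In expanded B cells 6 rose and 8 fell, and the medians were 0.51 and -0.07. Tnfrsf17 (BCMA), a survival receptor of plasma cells, was at 0 in both 33 h libraries, at 0 and 0.0739 in expanded B cells and at 7.51 and 8.64 RPKM in plasmablasts. The sister receptors Tnfrsf13b (TACI) and Tnfrsf13c (BAFF-R) measured 343 and 330.2 and 273 and 258 at 33 h and 458 and 457 and 256 and 235 in plasmablasts, and neither passed the test. Cd28, best known as a costimulatory receptor of T cells and also present on plasma cells, measured 0.0359 and 0.0396 RPKM in the 33 h libraries, 0.597 and 1.03 in the expanded ones and 20.3 and 23.1 in plasmablasts. Cd93, a receptor linked to plasma cell maintenance, and Slamf7 rose further (3.95 and 2.84). Of the receptors that serve contact with T cells, Cd40 measured 67.2 and 64.8 RPKM in the 33 h libraries, 29.3 and 28.4 in the expanded ones and 4.99 and 4.45 in plasmablasts and Cd86 17.2 and 14.3 RPKM in the 33 h libraries, 9.55 and 6.87 in the expanded ones and 1.57 and 1.24 in plasmablasts, each lower at every step, although the expanded call of Cd86 was lost in 9 of the 15 alternative settings that keep the fold threshold, among them with DESeq2 (-0.91) and without 33 h replicate I (-0.79), expanded replicate II (-0.72), plasmablast replicate I (-0.90) or plasmablast replicate II (-0.90). Fcer2a (CD23) fell by 5.57 in plasmablasts and by 2.31 in expanded B cells. Epcam, an adhesion molecule, rose by 3.98, a value that ran from 3.33 without 33 h replicate I to 4.90 without 33 h replicate II.

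Homing receptors moved both ways as well, with 8 of 22 higher (36.4%, against 20% of all genes) and 9 lower (40.9%, against 19.3%) in plasmablasts and 5 and 3 in expanded B cells. Their medians were 0.08 and 0.37, the first of which turned negative with library size alone (-0.26) and without 33 h replicate II (-0.12). Ccr7, which guides cells to the T cell zone, measured 85.9 and 57.3 RPKM in the 33 h libraries, 23.8 and 23.2 in the expanded ones and 0.965 and 1.05 in plasmablasts. Cxcr5, the receptor of follicles, was shared (-1.93 and -1.30), although its difference between the divided populations passed with library size alone (-0.97). Cxcr4, used in bone marrow, measured 8.91 and 11.2 RPKM in the 33 h libraries, 30.2 and 35.5 in the expanded ones and 75 and 75.4 in plasmablasts. Its rise in expanded B cells was lost without 33 h replicate I (1.55) or expanded replicate II (1.59), and its step from expanded B cells with library size alone (0.86), with DESeq2 (1.23) and in each of the 6 fits that leave out a library (1.08 to 1.32). Ccr10, used at mucosal surfaces, went from 0.150 and 0.132 to 3.26 and 5.36 and 18.7 and 25.7, and Ccr9, used in the gut, from 0.118 and 0.149 to 1.19 and 1.55 and 4.73 and 3.57. The integrin chain Itga4 rose by 3.14 while its partner Itgb7 fell by 2.48. S1pr1, the receptor for exit into blood, did not pass (0.70, adjusted p = 0.25), and without 33 h replicate I it did (1.17).

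Of 53 DNA replication genes 27 fell (50.9%, against 19.3% of all genes) and 0 rose in plasmablasts. Expanded B cells had 3 lower genes (medians against 33 h of -0.81 in plasmablasts and -0.32 in expanded B cells). Between expanded B cells and plasmablasts 9 were lower (17.0%, near the 12.2% of all genes) and 1 was higher (1.89%, against 13.9%). Pold1, the catalytic subunit of polymerase delta, measured 107 and 99.7 RPKM in the 33 h libraries, 51 and 48.3 in the expanded ones and 23.7 and 23.3 in plasmablasts, and Mcm3, part of the replicative helicase, 261 and 283 RPKM in the 33 h libraries, 184 and 189 in the expanded ones and 108 and 113 in plasmablasts. Both steps of Pold1 lay near the threshold, the first being lost in 8 of the 15 alternative settings that keep the fold threshold, among them with DESeq2 (-1.03) and in each of the 6 fits that leave out a library (-1.10 to -1.0) and the second with DESeq2 (-1.05) and without expanded replicate I (-1.04), plasmablast replicate I (-1.06) or plasmablast replicate II (-1.04). Of 59 mitosis genes 7 rose (11.9%, below the 20% of all genes) and 1 fell. In plasmablasts 2 were lower and 0 higher than in expanded B cells (3.39% and 0%, below the 12.2% and 13.9% of all genes). The medians were 0.09 in plasmablasts and 0.30 in expanded B cells. The plasmablast median turned negative with library size alone (-0.26) and without 33 h replicate I (-0.14). Mki67, the proliferation marker, measured 84.1 and 122 RPKM in the 33 h libraries, 148 and 150.0 in the expanded ones and 183 and 178 in plasmablasts and did not pass in plasmablasts (adjusted p = 0.0536), though it did in 5 of the 15 alternative settings that keep the fold threshold, with a change of 0.74 to 1.10, the highest without 33 h replicate II. Cenpa, the centromere histone, and Ccnb2, a mitotic cyclin, were shared (1.46 and 1.51, 1.15 and 1.52). Their 33 h libraries lay apart, with 20.6 and 40.0 RPKM for Cenpa and 23.1 and 42.6 for Ccnb2, and the plasmablast call was lost for Cenpa with DESeq2 (1.51) and without 33 h replicate I (1.05) and for Ccnb2 with library size alone (0.81). The expanded call of Cenpa was lost in 5 of the 15 alternative settings that keep the fold threshold, among them with DESeq2 (1.52) and without 33 h replicate I (1.10), expanded replicate I (1.53) or expanded replicate II (1.48).

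Cyclins and inhibitors of G1 changed in both directions (9 of 36 higher and 10 lower, or 25% and 27.8%, near the 20% and 19.3% of all genes, with a median of -0.23). Ccnd3 and Ccnd2, D-type cyclins, fell by 2.93 and 1.27 in plasmablasts, and Ccnd3 had also fallen in expanded B cells (-1.67). Myc was shared, with 74.2 and 78.5 RPKM in the 33 h libraries, 37.4 and 39.8 in the expanded ones and 27 and 35 in plasmablasts and a difference of -0.32 (95% interval -0.57 to -0.06). Its fall in expanded B cells was lost with DESeq2 (-0.96) and without expanded replicate I (-0.94). Among inhibitors of cyclin-dependent kinases, Cdkn2a and Cdkn1a were highest in expanded B cells. Cdkn2a measured 1.40 and 2.16 RPKM in the 33 h libraries, 44.7 and 39.2 in the expanded ones and 21.2 and 18.8 in plasmablasts and was partly returned, a class lost with DESeq2 (-1.04) and without expanded replicate I (-0.97) or plasmablast replicate II (-0.96), and Cdkn1a (p21) measured 3.43 and 6.27 RPKM in the 33 h libraries, 24.1 and 23.4 in the expanded ones and 13 and 15.5 in plasmablasts and was shared, other than with library size alone (-1.07), where the difference between the divided populations passed. Cdkn2c (p18), an inhibitor required for plasma cell formation, was plasmablast-only, with 13.5 and 15 RPKM in the 33 h libraries, 16.1 and 16.1 in the expanded ones and 37.5 and 30.8 in plasmablasts. Its difference between the divided populations was lost with library size alone (0.75). Mxd4, an antagonist of MYC, rose by 2.01 in plasmablasts.

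Ribosome biogenesis fell as a group. Of 63 tested genes 54 fell and 0 rose in plasmablasts (85.7%, against 19.3% of all genes), 3 fell in expanded B cells, and 40 were lower in plasmablasts than in expanded B cells, of which 37 were plasmablast-only. Ncl (nucleolin) measured 467 and 583 RPKM in the 33 h libraries, 330.3 and 325 in the expanded ones and 134 and 132 in plasmablasts, and Npm1, a nucleolar chaperone, 383 and 462 RPKM in the 33 h libraries, 405 and 394 in the expanded ones and 129 and 125 in plasmablasts. Fbl (fibrillarin), the methyltransferase of ribosomal RNA, fell by 1.67 in plasmablasts, with a change of -0.45 in expanded B cells. Polr1b, a subunit of RNA polymerase I, was a further gene (-1.75 and -0.98). Its step from expanded B cells was lost in 7 of the 15 alternative settings that keep the fold threshold, among them with DESeq2 (-0.75) and without expanded replicate I (-0.77), expanded replicate II (-0.78), plasmablast replicate I (-0.77) or plasmablast replicate II (-0.73). Together the 63 genes took 1.59% and 1.88% of counts at 33 h, 1.17% and 1.14% in the expanded libraries, and 0.470% and 0.462% in plasmablasts.

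Interferon-stimulated genes were mostly lower in both divided populations. Of 55 tested, 36 fell (65.5%, against 19.3% of all genes) and 3 rose in plasmablasts, and 39 fell (70.9%, against 3.66%) and 0 rose in expanded B cells. Of the 55, 25 were shared, against 1.79% of all genes in the shared lower class. In 1 of the 25 the interval of the difference lay within 1.5-fold. The medians were -2.06 in plasmablasts and -1.66 in expanded B cells, and the former became -1.30 with a minimum of 10 counts in each of the 6 libraries. Usp18, a brake on interferon signalling, measured 15 and 8.84 RPKM in the 33 h libraries, 0.523 and 0.390 in the expanded ones and 0.741 and 0.777 in plasmablasts, and Rsad2 (viperin), an antiviral enzyme, 5.28 and 3.17 RPKM in the 33 h libraries, 0.139 and 0.135 in the expanded ones and 0.347 and 0.261 in plasmablasts. In both, all 4 libraries of the divided populations lay far below 33 h. Ifit3 fell to 0.301 and 0.270 in the expanded libraries and 0.0212 and 0.0177 in plasmablasts, the latter 1 count in each library, from 9.48 and 6.10 at 33 h. The 33 h libraries differed, replicate I being the higher in each of these 3 genes. Several genes of the list left this pattern. Gbp2, a guanylate-binding protein, fell in plasmablasts only (-4.48 and -0.43), and Isg20, an exonuclease, rose in plasmablasts only, with 26.5 and 27.3 RPKM in the 33 h libraries, 28.4 and 35.1 in the expanded ones and 241 and 246 in plasmablasts. Irf7, a factor of the response, measured 35.9 and 21.9 RPKM in the 33 h libraries, 4.98 and 5.96 in the expanded ones and 53.9 and 57.8 in plasmablasts. It had fallen in expanded B cells (-2.41) and did not pass in plasmablasts (0.95, adjusted p = 0.21) except with no filter (0.88) and in a fit of 6 libraries (1.0). The expanded fall of Irf7 was lost without 33 h replicate I (-2.0), expanded replicate I (-2.28) or expanded replicate II (-2.54).

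The 33 genes that moved in opposite directions, 26 lower and 7 higher in plasmablasts than at 33 h, all differed between expanded B cells and plasmablasts by the test. Of 27 tested genes of class switching and mutation 9 fell (33.3%, against 19.3% of all genes) and 1 rose in plasmablasts, and 2 rose in expanded B cells (medians -0.62 and -0.29). Ung, which removes uracil from DNA, and Apex1, which cuts at the site left, fell by 1.57 and 2.15 in plasmablasts, with changes of -0.64 and -0.57 that did not pass in expanded B cells. Cd80, a ligand of CD28, measured 1.79 and 2.83 RPKM in the 33 h libraries, 7.20 and 6.12 in the expanded ones and 0.971 and 0.892 in plasmablasts, and its fall in plasmablasts was lost with DESeq2 (-1.25) and without 33 h replicate II (-0.95), plasmablast replicate I (-1.30) or plasmablast replicate II (-1.18), its rise in expanded B cells without 33 h replicate I (1.23). Tigit, an inhibitory receptor known from T cells, went the other way, with 9.81 and 12.5 RPKM in the 33 h libraries, 3.66 and 3.46 in the expanded ones and 73.4 and 80.5 in plasmablasts. Ly6a (Sca-1) measured 384 and 418 RPKM in the 33 h libraries, 167 and 188 in the expanded ones and 879 and 1071 in plasmablasts, and its fall in expanded B cells was lost with DESeq2 (-1.15) and without 33 h replicate I (-1.24), 33 h replicate II (-1.12) or expanded replicate I (-1.09).

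**Figure D5:**
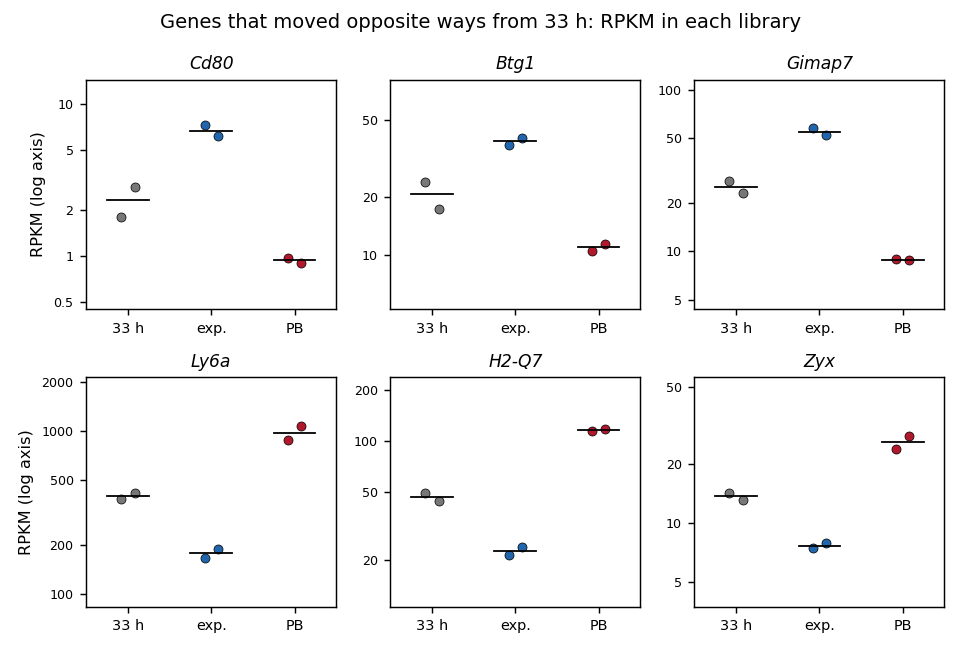
RPKM of 6 genes that moved in opposite directions from 33 h in expanded B cells (exp.) and plasmablasts (PB), in each library, on log axes that differ between panels. Points are the 2 libraries of a stage and bars their means. Cd80, Btg1 and Gimap7 were highest in expanded B cells and lowest in plasmablasts, and Ly6a, H2-Q7 and Zyx the reverse.

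In the Bcl2 family (17 tested) 4 rose and 5 fell in plasmablasts (23.5% and 29.4%, near the 20% and 19.3% of all genes). The median of 0.09 turned negative with library size alone (-0.25). The genes of the A1 cluster fell, Bcl2a1b from 228 and 176 at 33 h to 92.7 and 75.9 and 17 and 16.3, though copies of this cluster are nearly identical and their reads can be split between them. Bcl2 fell by 2.34, Bcl2l1 (BCL-XL) rose by 1.87, and the death-promoting Bcl2l11 (BIM) measured 13.9 and 13.7 RPKM in the 33 h libraries, 18.7 and 19.3 in the expanded ones and 92.2 and 83.8 in plasmablasts. Mcl1, on which plasma cells depend, rose by 0.83, a call lost with library size alone (0.49) and without 33 h replicate II (0.71). Of 42 genes of NF-kB, AP-1 and the early response, 13 rose and 14 fell (31% and 33.3%), with a median of -0.17. Nfkb1 and Batf fell by 1.88 and 1.49, while Fos measured 0.816 and 0.313 RPKM in the 33 h libraries, 1.88 and 5.16 in the expanded ones and 11.6 and 24.3 in plasmablasts, its replicates well apart in every stage. The change of Fos in plasmablasts was 4.90, and 5.83 without 33 h replicate I, while its expanded call was lost in a fit of 6 libraries (2.55) and without 33 h replicate II (2.09) or expanded replicate II (1.65). Egr1, another early response gene, measured 39.7 and 137 in the plasmablast libraries and did not pass (1.86, adjusted p = 0.11), although it did with no filter (1.78) and without expanded replicate I (1.86), expanded replicate II (1.86) or plasmablast replicate I (2.55).

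Metabolic lists had medians of 0.01 to 0.42 in plasmablasts. Of 46 genes of amino acid supply and ATF4 targets 14 rose and 4 fell (30.4% and 8.70%, against 20% and 19.3% of all genes), with a median of 0.42. Slc3a2, the heavy chain of amino acid exchangers, measured 63.4 and 73.7 RPKM in the 33 h libraries, 75.9 and 82.9 in the expanded ones and 495 and 552 in plasmablasts, and Pycr1, of proline synthesis, rose by 3.83, both in plasmablasts only. Asns (asparagine synthetase) was shared (2.55 and 2.07), and Mthfd1, of the folate cycle, fell by 1.73. Of 49 genes of the respiratory chain and ATP synthase 11 rose (22.4%, near the 20% of all genes) and 0 fell, with a median of 0.23 that became -0.12 with library size alone. Of 41 genes of cholesterol and fatty acid synthesis 6 rose and 5 fell (14.6% and 12.2%). The median of 0.01 turned negative with library size alone (-0.34), with no filter (-0.058) and without 33 h replicate II (-0.052). In this list Acaca and Scd1 changed by -2.02 and -1.76, and Insig1 by 1.92.

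Markers of other cells were checked across the stages. The CPM given here are per total counts, immunoglobulin counts included, without TMM scaling. B cell markers (4 genes) summed to 3290.2 to 3999.65 CPM at 33 h, 3749.9 to 3900.68 in the expanded libraries and 2038 to 2094 in plasmablasts. In the TMM-scaled test 1 of the 4 was lower in plasmablasts (25%, near the 19.3% of all genes), with a median log2 change of -0.35. T cell markers (7 genes, 6 tested) summed to at most 0.111 CPM at 33 h, 0.932 in the expanded libraries and 2.02 in plasmablasts, and 4 of the 6 passed as higher on at most 33 counts a library, with Cd8a and Thy1 at 0 in both plasmablast libraries and Cd3e at 0 there too and under the count filter. Their part in the results was not tested. Myeloid markers summed to 20.2 to 28.5 CPM at 33 h, nearly all of it Itgam and Adgre1. They summed to 35.3 to 37.5 in the expanded libraries and 0.341 to 0.582 in plasmablasts, with Lyz2 and S100a8 at 0 in all 6 libraries. Mpeg1 was likewise lowest in plasmablasts, and the part of myeloid cells in its fall was not tested. Erythroid and natural killer markers summed to at most 1.69 CPM in each of the 6 libraries. Dendritic markers summed to 18.3 to 24.5 CPM at 33 h, 52.6 to 56.7 in the expanded libraries and 24 to 28.4 in plasmablasts, and nearly all of this was Flt3.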

How the data were processed

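RNA from sorted cells was sequenced as paired ends, and the authors used Rsubread for alignment to mm10 and featureCounts for counting per gene. The deposited values are raw counts per gene for the 12 libraries. Of 27179 gene IDs 25275 were matched to symbols, and IDs without a match (1.41% to 2.08% of counts), genes of the X and Y chromosomes, mitochondrial genes, ribosomal RNA and variable immunoglobulin segments were left out, following the study's own filters, which left 23700. The default filter of edgeR's filterByExpr kept 12750. edgeR 4.0.16 (R 4.3.3) was fitted over all 12 libraries with TMM scaling and robust quasi-likelihood dispersions, and glmTreat tested each difference against a 1.5-fold change, with Benjamini-Hochberg adjustment. Log2 fold changes with SE, RPKM and 95% intervals were computed from the counts here. Depth ran from 23026619 to 60585587 counts a library. A gene with at most 3 counts in each library of a stage gets no fold change.

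Genes named first were, in each class and direction, the 5 with the largest change among those with a mean log2 CPM of 5 or more and replicates that do not overlap, then members of the gene lists; a few genes are not reported here. Genes whose product was used for sorting were given as checks. The libraries, lists and named genes were chosen with earlier results of these data known. Lists are described by counts and medians beside the share of all genes called. Alternatives were DESeq2 1.42.0 (test and size factors), library size alone, the F-test without a fold threshold, other filters, a fit of 6 libraries, all genes kept, immunoglobulin genes left out, each library left out and a replicate block. The edgeR code was tested on simulated data. Whether same-numbered replicates are paired is not given in the sources used here.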

Additional observations from a re-analysis of the deposited data

Results flagged for a closer look

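Of the 33 genes that moved from 33 h in opposite directions in the divided populations, 8 with a mean log2 CPM of 5 or more or named in the text are given here, and in each the difference between plasmablasts and expanded B cells was tested and passed. Cd80 had -1.29 in plasmablasts and 1.55 in expanded B cells. Btg1, an antiproliferative gene, had -0.92 and 0.91, and its fall in plasmablasts was lost with DESeq2 (-0.86) and without 33 h replicate I (-0.67) or plasmablast replicate I (-0.80), its rise in expanded B cells with DESeq2 (0.94) and without 33 h replicate II (0.70), expanded replicate I (0.97) or expanded replicate II (0.85). Cdh17, a cadherin, had -1.35 in plasmablasts, with 3.24 and 4.56 RPKM at 33 h, 24.9 and 22.9 in the expanded libraries and 1.60 and 1.45 in plasmablasts. Gimap7, a lymphocyte GTPase, had -1.51 and 1.12, the latter lost with library size alone (1.11), with DESeq2 (1.15), with the replicate block (1.12) and without 33 h replicate I (1.25), 33 h replicate II (1.01), expanded replicate I (1.05) or expanded replicate II (1.19). Of those higher in plasmablasts, Tigit had 2.79 and -1.64, Ly6a 1.28 and -1.18, H2-Q7 1.30 and -1.06, and Zyx, an adhesion protein, 0.92 and -0.84. H2-Q7 has near-identical class I copies, so its reads are uncertain. The rise of Zyx was lost with library size alone (0.57), and its fall in expanded B cells in 9 of the 15 alternative settings that keep the fold threshold, among them with DESeq2 (-0.82) and without 33 h replicate I (-0.78), expanded replicate I (-0.80), expanded replicate II (-0.88), plasmablast replicate I (-0.81) or plasmablast replicate II (-0.81).

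Variable immunoglobulin segments were left out of every test. They took 5.12% and 5.19% of counts in the plasmablast libraries, against 1.13% and 1.28% in expanded B cells, 0.358% and 0.479% at 33 h, and 0.439% and 0.435% in the naive libraries.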

How the results depend on the processing

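With library size alone 1899 genes were higher and 3983 lower in plasmablasts than at 33 h, and the median change turned negative for homing receptors (-0.26), mitosis (-0.26), the Bcl2 family (-0.25), cholesterol and fatty acid synthesis (-0.34) and the respiratory chain (-0.12). The median also turned negative for cholesterol synthesis with no filter (-0.058) and without 33 h replicate II (-0.052, with leave-one-out values of up to 0.10), for homing receptors without 33 h replicate II (-0.12, up to 0.19), and for mitosis without 33 h replicate I (-0.14, up to 0.34). Library size alone also moved the medians of costimulation (0.16), amino acid supply (0.076), G1 regulators (-0.57), NF-kB and AP-1 (-0.52) and class switching (-0.96), and a minimum of 10 counts in each of the 6 libraries, which tests fewer genes, that of interferon-stimulated genes (-1.30). DESeq2's test called 309 further genes. The F-test without a fold threshold called 4029 higher and 4570 lower genes, 2434 further and 1379 shared, a wider criterion by construction. Leaving out each library in turn gave 2387 to 2510 higher and 1954 to 2403 lower genes, 1890 to 2462 plasmablast-only, 312 to 535 further and 340 to 560 shared. With the replicate block the counts were 2538 higher and 2450 lower, with 2308 plasmablast-only, 481 further and 554 shared. The numbers do not establish a pairing: same-numbered libraries correlated in their deviations by 0.018 (33 h and expanded), 0.010 (33 h and plasmablast) and 0.084 (expanded and plasmablast), none over 0.1. Over 216 named genes and 10110 values, 9689 kept direction and side of the threshold, 224 lost a call, 197 gained a call and 0 reversed. Where not stated otherwise, the cause of a change was not tested. Depth gave no fold change for DE genes with at most 3 counts in each library of a stage, 177 at 33 h and 196 in plasmablasts.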

Other observations

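Genes of the X chromosome were left out of the test, and 8 members of the lists lie there. With all genes of the table kept, the folding peroxiredoxin Prdx4 rose by 2.09 in plasmablasts and had a change of 0.56 in expanded B cells. Magt1, of the oligosaccharyltransferase complex, rose by 2.13 (0.69 in expanded B cells), and Ndufa1, of respiratory complex I, by 1.99 (0.42). Dkc1, the pseudouridine synthase of ribosome biogenesis, fell by 2.06 (-0.57 in expanded B cells). Each of these 4 passed in plasmablasts and between the divided populations and not in expanded B cells, where the adjusted p of Magt1 was 0.24. The chemokine receptor Cxcr3 rose in both (1.87 in plasmablasts and 2.65 in expanded B cells), while Utp14a, Nsdhl and Mbtps2 had -0.71, 0.12 and -0.14 in plasmablasts and did not pass.

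Of the 34 genes that plasmablasts had partly returned towards 33 h, 32 were higher than at 33 h. Bhlhe41, a repressor known from B-1a cells, measured 11.7 and 14.4 RPKM at 33 h, 113 and 115 in the expanded libraries and 58.7 and 58.9 in plasmablasts, and its fall from expanded B cells to plasmablasts no longer passed with DESeq2 (-0.92). The plasmablast libraries lay between the other stages without overlap.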
